A study of Mus musculus with 8 samples.

Results

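The SLC25 carriers are a family of mitochondrial transport proteins. Their genes were selected here by name, as protein-coding genes of the mouse GENCODE annotation (GRCm38) called Slc25a followed by a number, without Slc25a20, and with at least 80 counts summed over the 8 libraries. Of the 46 genes with such a name, 37 met the count minimum, out of 53465 gene identifiers in the files, and all 37 also passed the filter on low counts before testing. Slc25a47, with 504 counts, had the lowest sum inside the minimum. Outside it were Slc25a2 with 45 counts, Slc25a43 with 42, Slc25a48 with 10, Slc25a34 and Slc25a41 with 5 each, Slc25a31 with 3, and Slc25a54, Slc25a18 and Slc25a21 with 0.

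RNA was sequenced from cultures of CD4+ T cells, taken from spleen and peripheral lymph nodes of C57BL/6 mice (wild type) and polarized in vitro into regulatory T cells (Tregs). Both groups shared the polarizing culture: a coat of anti-CD3 at 5 µg/mL, TGF-β at 5 ng/mL, anti-CD28 at 0.5 µg/mL, IL-2 at 100 U/mL, and antibodies against IFN-γ, IL-4 and IL-12 at 10 µg/mL. At 72 h the cultures were divided, and 4 control libraries came from cells kept without drug and 4 libraries, called FABPi, from cells given 50 µM BMS309403, an inhibitor of fatty acid-binding proteins used against FABP5. The labels name no vehicle, no exposure time, no sort of the polarized cells and no number of mice, so p-values measure only the spread between these libraries, which may be technical, and effects on FABP5 and other effects of the compound cannot be told apart. All 7 T cell and Treg markers examined were detected (summed level 4873 to 5481 counts per 1000000, CPM, in control and 6138 to 6493 CPM in FABPi libraries). Of the 7, 4 rose (18.7% of all genes tested rose): Foxp3 1.31-fold, Il2ra 1.33-fold, Ikzf2 1.78-fold and Tnfrsf18 1.58-fold. Cd3e fell 1.38-fold (18.1% of all genes fell), and Cd4 and Ctla4 did neither. Markers of other cells were low: the summed level was at most 14.9 CPM for cytotoxic T cells, 5.68 CPM for B cells, 3.24 CPM for myeloid cells, 0.0509 CPM for NK cells (with Ncr1 at 0) and 0.403 CPM for erythroid cells (with Hbb-bs at 0). Among them the myeloid gene Adgre1 fell (18.1% of all genes did), at very low means of 0.565 CPM in control and 0.137 CPM in FABPi libraries. The other myeloid gene tested, Lyz2, did not pass the test. The part of these shifts in the results was not tested.

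Carriers of this family sit mostly in the inner mitochondrial membrane, which is impermeable to charged metabolites, and exchange a metabolite of the matrix for one of the cytosol. They move ADP and ATP, phosphate, the acids of the citric acid cycle, amino acids, cofactors and iron, and so link oxidative phosphorylation, biosynthesis and redox shuttles to the cytosol. Activated T cells depend on such exchange, for example to export citrate for lipid synthesis and to move reducing equivalents through the malate-aspartate shuttle.

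Promoter windows of 300 bases (250 before to 50 after a transcription start, RefSeq, GRCm38.p6) were found for 28 of the 37 carriers, 37 windows in all because some genes have several starts. An E-box, CACGTG, which reads the same on both strands, was found in 7 of these 37 windows (18.9%), belonging to Slc25a1, Slc25a13, Slc25a14, Slc25a15, Slc25a33 and Slc25a36, against 7.15% of the 32851 windows of all genes. Windows of nearby starts overlap: 2 windows of Slc25a14 hold the same E-box, so the 7 windows hold 6 distinct sites. The NRF1 element (GCGC, then any base, then TGCGC), searched on both strands, was found for Slc25a3 alone, against 4.6% of all windows. The amino acid response element TGATGNAA, on both strands, was in 0 of the 37 windows, against 3.97% of all. These matches describe letters in a window and say nothing of binding. Shown are the windows of Slc25a22, the carrier with the largest change, and of the 3 carriers with an E-box that passed the test, of which Slc25a1 and Slc25a13 fell and Slc25a33 rose. For Slc25a22 it is the outermost of 3 starts, since counts per gene do not tell which start was used. Capitals mark the E-box and, as a single letter, the first transcribed base. The windows lie at chr7:141437825-141438124 (Slc25a22), chr16:17928170-17928469 (Slc25a1), chr6:6217124-6217423 (Slc25a13) and chr4:149774218-149774517 (Slc25a33), all on the minus strand. The E-box began 239 bases before the start in Slc25a1, 125 bases before it in Slc25a13 and 8 bases before it in Slc25a33.
Slc25a22: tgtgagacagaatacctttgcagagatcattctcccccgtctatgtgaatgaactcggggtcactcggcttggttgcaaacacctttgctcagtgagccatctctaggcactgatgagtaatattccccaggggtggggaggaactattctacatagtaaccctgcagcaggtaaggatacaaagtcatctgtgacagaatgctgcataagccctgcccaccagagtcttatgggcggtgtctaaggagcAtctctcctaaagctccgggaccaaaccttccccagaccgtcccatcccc
Slc25a1: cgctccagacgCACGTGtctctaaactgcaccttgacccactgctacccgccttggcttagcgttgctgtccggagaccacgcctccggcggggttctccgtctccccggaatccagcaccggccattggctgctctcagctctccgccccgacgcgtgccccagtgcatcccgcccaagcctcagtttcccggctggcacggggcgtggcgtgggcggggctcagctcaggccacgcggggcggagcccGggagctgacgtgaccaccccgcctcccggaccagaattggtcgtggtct
Slc25a13: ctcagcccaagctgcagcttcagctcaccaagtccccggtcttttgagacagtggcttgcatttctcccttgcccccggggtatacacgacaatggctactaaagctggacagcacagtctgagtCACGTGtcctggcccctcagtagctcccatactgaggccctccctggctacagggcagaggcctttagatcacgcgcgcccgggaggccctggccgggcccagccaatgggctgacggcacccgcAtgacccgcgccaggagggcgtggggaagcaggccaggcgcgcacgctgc
Slc25a33: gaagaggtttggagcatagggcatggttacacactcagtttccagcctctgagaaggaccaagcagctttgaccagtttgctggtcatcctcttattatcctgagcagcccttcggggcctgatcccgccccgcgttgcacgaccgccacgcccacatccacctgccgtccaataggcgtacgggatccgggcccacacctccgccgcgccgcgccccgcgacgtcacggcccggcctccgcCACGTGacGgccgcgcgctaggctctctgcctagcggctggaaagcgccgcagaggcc

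The libraries held from 32.9 M to 44.6 M counts each. The share that fell on the 37 carriers together was 0.269% ± 0.00526 in control and 0.265% ± 0.00592 in FABPi libraries (SD, n = 4), and the 2 groups overlapped. The comparison of the groups asks which carrier messages change when Tregs are given the inhibitor; the series title ties the study to mitochondrial integrity. Levels are CPM scaled to the library size adjusted by the TMM method, and changes are log2 fold changes, FABPi over control, from edgeR's quasi-likelihood test, called at a Benjamini-Hochberg adjusted p under 0.05 over all 14443 genes tested.

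The glutamate carrier message rose 2.01-fold, those of both mitoferrins and of the glycine carrier rose less, and those of the citrate, dicarboxylate and oxoglutarate carriers fell a little. Of the 37, 7 rose (18.9%; 18.7% of all genes tested rose) and 4 fell (10.8%; 18.1% of all genes fell), so the share that rose was close to the background. The median log2 fold change was 0.02, beside 0.01 over all genes. Slc25a22 was the single carrier that changed at least 2-fold, 36 of 37 changed by less than 1.5-fold, and 7 of the 11 that passed changed by less than 1.25-fold. Shares of all genes at these fold sizes were not computed. Slc25a22, Slc25a33, Slc25a38, Slc25a28, Slc25a37, Slc25a44 and Slc25a25 rose, and Slc25a10, Slc25a1, Slc25a13 and Slc25a11 fell. In a fit with the replicate number as a block, 10 rose (26.6% of all genes did so in that fit) and 8 fell (25.8%). With no filter on low counts, 7 rose (10% of the genes then tested) and 5 fell (9.23%).

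Leaving out a library changed the number of rises to between 5 and 8 and the number of falls to between 2 and 5. Without control replicates 1 to 4 in turn, 8, 5, 6 and 5 carriers rose (20.1, 14.2, 14.2 and 18% of all genes) and 5, 3, 2 and 4 fell (19, 14.2, 13.9 and 17.5%). Without FABPi replicates 1 to 4 in turn, 6, 7, 6 and 6 rose (18, 14.6, 16.8 and 14.7% of all genes) and 5, 2, 4 and 3 fell (17.9, 13.8, 16.1 and 13.9%). The 4 falls thus became 2 without control replicate 3 or without FABPi replicate 2.

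**Figure D1:**
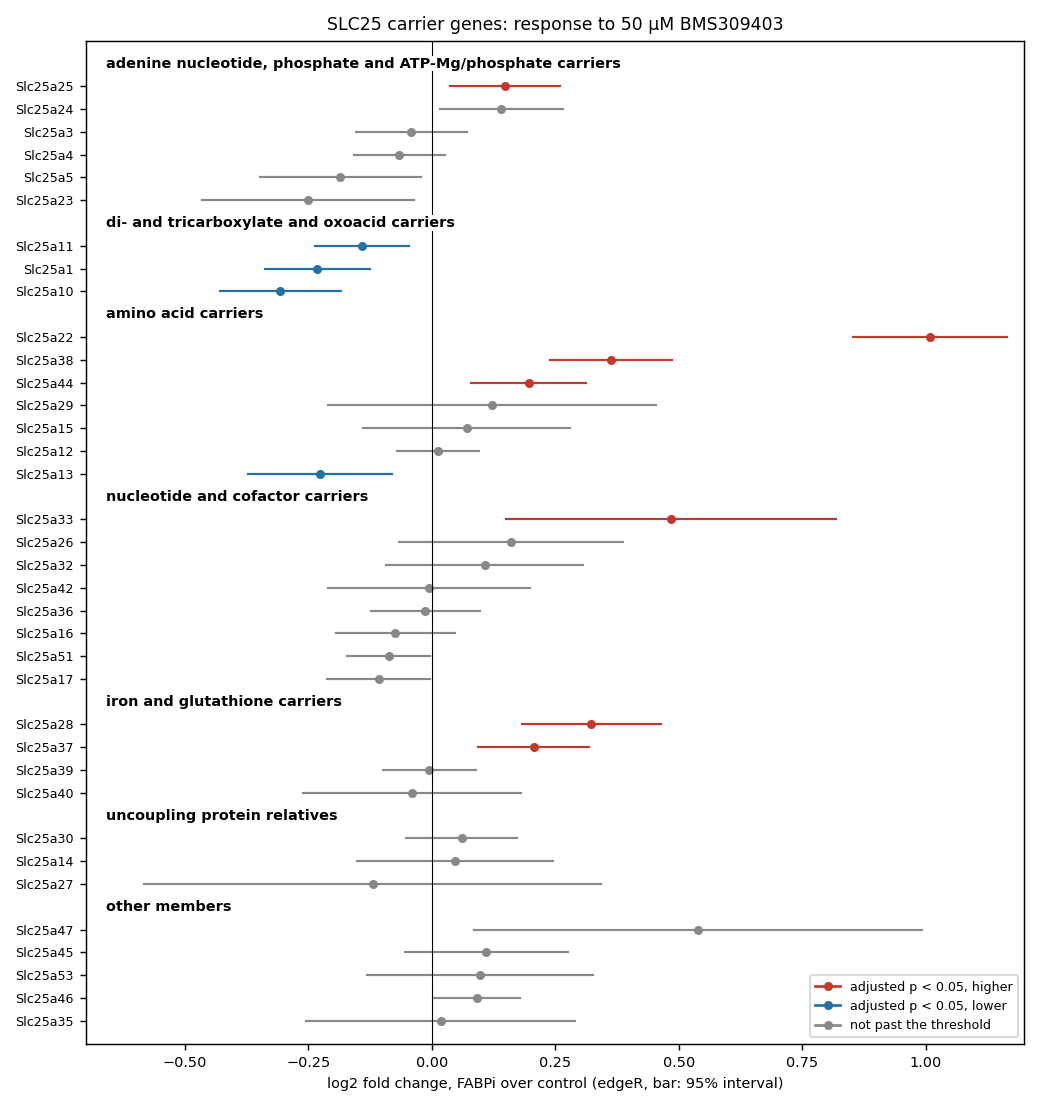
Log2 fold change (x axis, FABPi over control) of the SLC25 genes, grouped by what they carry, with 95% intervals from edgeR; red marks genes past the threshold that were higher, blue those that were lower, grey the rest. All 3 tested carriers of di- and tricarboxylic acids lie left of 0, and Slc25a22, at 1.01, lies right of all other carriers.

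Among the amino acid carriers, 3 of 7 tested rose (18.7% of all genes did) and 1 fell (18.1% of all genes), with a median log2 fold change of 0.12. Slc25a22 (ENSMUSG00000019082, chromosome 7, 141429744 to 141437892, minus strand) carries glutamate into the matrix. It stood at 52.6, 40.3, 43.5 and 43.3 CPM in control replicates 1 to 4 and at 88.8, 89.0, 87.6 and 95.8 CPM in the FABPi libraries. Every FABPi library lay far above every control library, and control replicate 1 was the highest of the controls. The fold was 2.01 (log2 fold change 1.01, SE 0.07, adjusted p = 7.27e-07), and among same-numbered libraries the log2 difference was 0.76, 1.14, 1.01 and 1.15.

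Slc25a38 (ENSMUSG00000032519, chromosome 9, 120110374 to 120124504, plus strand) carries glycine, a substrate of the first step of heme synthesis. Its values were 34.3, 32.9, 33.4 and 34.2 CPM in control and 39.0, 43.0, 44.3 and 46.8 CPM in FABPi libraries, a fold of 1.29 (log2 fold change 0.36, SE 0.06, adjusted p = 0.000413). The controls lay within a narrow band, and the FABPi libraries spread more widely above it. Slc25a44 (ENSMUSG00000050144, chromosome 3, 88410498 to 88425139, minus strand) carries branched-chain amino acids. It went from 25.2, 25.5, 24.2 and 25.4 CPM to 29.9, 27.3, 27.3 and 30.4 CPM, a fold of 1.15 (log2 fold change 0.20, SE 0.05, adjusted p = 0.0137), again without overlap of the groups.

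Of the 2 carriers that exchange aspartate for glutamate in the malate-aspartate shuttle, 1 fell (18.1% of all genes did). Slc25a13 (ENSMUSG00000015112, chromosome 6, 6041218 to 6217173, minus strand), which encodes citrin, stood at 19.3, 17.0, 19.3 and 17.6 CPM in control and 16.8, 14.8, 15.8 and 15.0 CPM in FABPi libraries. The groups did not overlap, though the highest FABPi library came close to the lowest control, and the log2 fold change was -0.23 (SE 0.07, adjusted p = 0.0202). Its call was lost without control replicate 3 (adjusted p = 0.0662), FABPi replicate 2 (0.0666) or FABPi replicate 4 (0.0603). The other, Slc25a12 or aralar, stood at 73.1, 73.6, 76.2 and 77.7 CPM in control and 76.2, 74.0, 75.9 and 77.1 CPM in FABPi libraries. These ranges overlapped almost fully, and the log2 fold change was 0.01 (95% interval -0.07 to 0.09). The remaining amino acid carriers were not past the threshold: the log2 fold change was 0.07 for the ornithine carrier Slc25a15 (95% interval -0.14 to 0.28) and 0.12 for Slc25a29, a carrier of basic amino acids at 1.74 CPM in control (-0.21 to 0.45).

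All 3 tested carriers of di- and tricarboxylic and oxo acids fell, with and without the replicate block (25.8% and 18.1% of all genes fell), with a median log2 fold change of -0.23; Slc25a21, the other gene of that list, had 0 counts. Slc25a10 (ENSMUSG00000025792, chromosome 11, 120491840 to 120499187, plus strand), the dicarboxylate carrier, exchanges malate or succinate for phosphate. It stood at 30.5, 28.8, 29.4 and 29.7 CPM in control and 25.6, 23.9, 21.8 and 24.5 CPM in FABPi libraries. This was the largest fall of the family, 1.24-fold (log2 fold change -0.31, SE 0.06, adjusted p = 0.0013), and no FABPi library reached the lowest control.

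Slc25a1 (ENSMUSG00000003528, chromosome 16, 17925223 to 17928219, minus strand), the citrate carrier, supplies the cytosol with citrate for acetyl-CoA. It went from 125, 136, 137 and 126 CPM to 107, 111, 119.8 and 108 CPM, a 1.17-fold fall (log2 fold change -0.23, SE 0.05, adjusted p = 0.00316) with no overlap. Slc25a11 (ENSMUSG00000014606, chromosome 11, 70644196 to 70647479, minus strand) exchanges oxoglutarate for malate in the malate-aspartate shuttle. It went from 105, 102, 101 and 95.5 CPM to 92.3, 91.3, 95.4 and 86.8 CPM, a 1.10-fold fall (log2 fold change -0.14, SE 0.04, adjusted p = 0.0242). Here control replicate 4, at 95.5 CPM, nearly met FABPi replicate 3, at 95.4 CPM. The call was lost without control replicate 2 (adjusted p = 0.0669), control replicate 3 (0.0601), FABPi replicate 2 (0.0608) or FABPi replicate 4 (0.0805), and with the low-count filter off (0.0593).

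**Figure D2:**
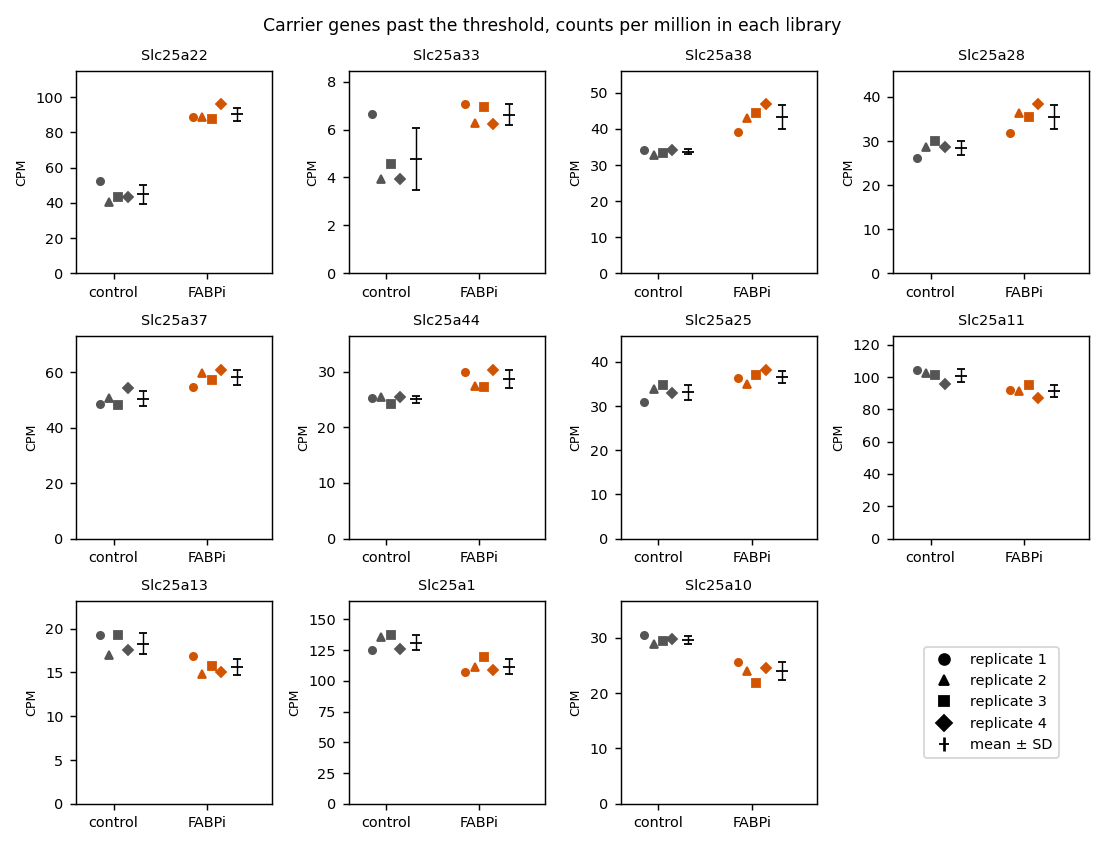
Level in CPM (y axis, from 0) of the 11 carriers past the threshold in each control (grey) and FABPi (orange) library; marker shapes give the replicate number and bars the mean ± SD of 4 libraries. The 2 groups overlap for Slc25a33, where control replicate 1 lies at 6.66 CPM, and for no other gene shown.

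Both mitoferrins, which bring iron into the matrix for heme and iron-sulfur clusters, rose, while neither of the glutathione carriers passed the threshold (2 of 4 in the list of iron and glutathione carriers rose, against 18.7% of all genes, and 0 fell, against 18.1%). Slc25a28, or mitoferrin-2 (ENSMUSG00000040414, chromosome 19, 43663801 to 43674881, minus strand), stood at 26.2, 28.6, 29.9 and 28.7 CPM in control and 31.8, 36.3, 35.6 and 38.3 CPM in FABPi libraries, a fold of 1.25 (log2 fold change 0.32, SE 0.06, adjusted p = 0.00217). Slc25a37, or mitoferrin-1 (ENSMUSG00000034248, chromosome 14, 69241848 to 69285112, minus strand), known for its part in red cell precursors, went from 48.6, 50.6, 48.4 and 54.2 CPM to 54.9, 59.7, 57.3 and 61.0 CPM. That was a fold of 1.15 (log2 fold change 0.21, SE 0.05, adjusted p = 0.00823), and the lowest FABPi library lay just above the highest control for this gene. The glutathione carrier Slc25a39 stood at 113, 106, 109.9 and 105 CPM in control and 110.1, 103, 114 and 105 CPM in FABPi libraries. Slc25a40 stood at 25.0, 29.6, 29.4 and 32.9 CPM in control and 23.6, 32.5, 27.1 and 30.6 CPM in FABPi libraries. The groups overlapped for both, and Slc25a39 and Slc25a40 had log2 fold changes of -0.01 (95% interval -0.10 to 0.09) and -0.04 (-0.26 to 0.18).

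The carriers of energy metabolism included the most abundant messages of the family. Of the 6 tested, 1 rose (18.7% of all genes did) and 0 fell (18.1% of all genes), with a median log2 fold change of -0.05. With the replicate block 2 of the 6 rose (26.6% of all genes did) and 2 fell (25.8%). Slc25a5, the main ADP/ATP carrier message here, was at 809.9, 714, 721 and 688 CPM in control and 729.8, 601, 671 and 578 CPM in FABPi libraries. Control replicate 1 and FABPi replicate 1 were each the highest of their group, and the groups overlapped. The adjusted p was 0.0727, at a log2 fold change of -0.19 (95% interval -0.35 to -0.02). Slc25a5 fell in the fit with the replicate block (adjusted p = 0.000259), with the low-count filter off (0.0264) and without FABPi replicate 1 (0.0148), and in all 4 same-numbered pairs the FABPi library was the lower. Its relative Slc25a4 stood at 280.3, 269, 278 and 263 CPM in control and 271, 255, 267 and 249.6 CPM in FABPi libraries, with overlap. For Slc25a4 the log2 fold change was -0.07 (95% interval -0.16 to 0.03), and for the phosphate carrier Slc25a3, which brings in the phosphate for ATP synthesis, -0.04 (-0.15 to 0.07). Slc25a3 went from 436, 407, 426 and 394 CPM to 433, 382, 412 and 387 CPM, so that replicate 1 was the highest of each group here too.

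Of the 3 calcium-regulated carriers of ATP-Mg and phosphate, 1 rose (18.7% of all genes did). Slc25a25 (ENSMUSG00000026819, chromosome 2, 32414487 to 32451445, minus strand) stood at 30.9, 33.8, 34.7 and 33.0 CPM in control and 36.4, 35.0, 37.0 and 38.2 CPM in FABPi libraries, a fold of 1.11 (log2 fold change 0.15, SE 0.05, adjusted p = 0.0397). This was the smallest of the rises and the least stable: its adjusted p was between 0.0629 and 0.112 without control replicate 1, 2 or 4 or FABPi replicate 1, 3 or 4, and 0.0733 with the low-count filter off. Slc25a24 stood at 19.5, 20.7, 21.7 and 21.7 CPM in control and 21.8, 22.9, 24.1 and 23.5 CPM in FABPi libraries, just without overlap. It had a log2 fold change of 0.14 (adjusted p = 0.073); it passed with the replicate block (0.0138) and without FABPi replicate 1 (0.0497). Slc25a23 stood at 28.5, 35.8, 33.7 and 40.8 CPM in control and 26.4, 28.0, 29.8 and 32.6 CPM in FABPi libraries, and its log2 fold change was -0.25 (SE 0.10, adjusted p = 0.0651). The 4 control values spread so widely that the groups overlapped, but within every same-numbered pair the FABPi library was lower. Slc25a23 fell in the fit with the replicate block (adjusted p = 0.000355), with DESeq2 (0.0413), with the low-count filter off (0.0205), without control replicate 1 (0.00446) and without FABPi replicate 4 (0.0442).

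Of the 9 nucleotide and cofactor carriers, 1 rose (18.7% of all genes did) and 0 fell (18.1% of all genes), around a median of -0.01 on the log2 scale. That carrier was Slc25a33 (ENSMUSG00000028982, chromosome 4, 149744036 to 149774277, minus strand), a pyrimidine nucleotide carrier, at 6.66, 3.93, 4.58 and 3.92 CPM in control and 7.05, 6.29, 6.93 and 6.23 CPM in FABPi libraries. Control replicate 1 lay within the FABPi range, and the other controls lay well below it. The fold was 1.40 (log2 fold change 0.48, SE 0.15, adjusted p = 0.0277), and without control replicate 1 the log2 fold change was 0.68 (adjusted p = 0.000167). The call was lost without control replicate 2 (adjusted p = 0.0906), control replicate 3 (0.0720), control replicate 4 (0.0716), FABPi replicate 1 (0.0571) or FABPi replicate 3 (0.0642).

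The other carriers of this list did not pass the threshold in the main fit. Slc25a51, the carrier that brings NAD into the matrix, went from 75.1 ± 1.45 to 70.7 ± 2.12 CPM (SD, n = 4) without overlap of the groups, but with an adjusted p = 0.0962, or 0.0312 with the replicate block. Slc25a17, a carrier of peroxisomes rather than mitochondria, had a log2 fold change of -0.11 (adjusted p = 0.0979, or 0.0177 with the replicate block). The folate carrier Slc25a32 stood at 24.8 CPM in control replicate 1 against 18.7 to 20.2 CPM in the other controls, and at 25.4 CPM in FABPi replicate 1 against 20.4 to 22.3 CPM in the other FABPi libraries. Its log2 fold change was 0.11 (95% interval -0.09 to 0.31). Its adjusted p was 0.387, and 0.0481 without control replicate 1. The S-adenosylmethionine carrier Slc25a26, the coenzyme A carriers Slc25a16 and Slc25a42 and the pyrimidine nucleotide carrier Slc25a36 had log2 fold changes between -0.07 and 0.16 and passed in neither fit. The 95% interval of Slc25a26, at 0.16, was wide (-0.07 to 0.39). Slc25a16 stood at 30.2, 27.9, 28.8 and 29.0 CPM in control and 29.4, 27.7, 27.6 and 25.4 CPM in FABPi libraries. Slc25a42 went from 9.17, 10.2, 10.1 and 11.7 CPM to 9.46, 10.7, 9.31 and 11.5 CPM. Slc25a36, the more abundant relative of Slc25a33, went from 65.2, 72.0, 67.5 and 71.4 CPM to 63.5, 72.4, 69.1 and 68.6 CPM. For these 3 the groups overlapped.

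The relatives of the uncoupling proteins, Slc25a14, Slc25a27 and Slc25a30, had log2 fold changes between -0.12 and 0.06. In either fit 0 of 3 passed. Of all genes, 18.7% rose and 18.1% fell, or 26.6% and 25.8% with the replicate block. Slc25a14 stood at 4.96, 5.26, 4.67 and 4.97 CPM in control and 5.65, 5.17, 4.73 and 4.98 CPM in FABPi libraries, and Slc25a30 at 29.6, 29.0, 29.7 and 32.7 CPM and 31.2, 31.3, 32.7 and 31.0 CPM, with overlap for both. Slc25a27 varied widely between libraries, from 3.41 to 6.72 CPM within the controls. In the last group, 0 of 5 passed (18.7% of all genes rose and 18.1% fell). With the replicate block 2 of the 5 rose (26.6% of all genes did). Slc25a47, at 1.30 CPM in control, had an adjusted p of 0.0609 (log2 fold change 0.54, SE 0.21). It rose in the fit with the replicate block (0.0161), with the low-count filter off (0.0355), without control replicate 1 (0.0373) and without FABPi replicate 3 (0.0280). Slc25a46, a protein of the outer membrane with a part in mitochondrial fission, went from 69.5 ± 1.60 to 74.0 ± 2.63 CPM (SD, n = 4), with an adjusted p = 0.0985, or 0.033 with the replicate block. Slc25a45, Slc25a53 and Slc25a35 had log2 fold changes between 0.02 and 0.11.

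Libraries were also set against the library of the same number in the other group. In all 4 pairs, 11 carriers were higher in the FABPi library (30.8% of all genes tested were) and 12 were lower (29% of all genes). Counted without pairs, all 4 FABPi libraries lay above all 4 controls for 8 carriers (17.7% of all genes) and below them for 5 (16.1%). The 8 were the risers other than Slc25a33, with Slc25a24 and Slc25a46, and the 5 were the 4 that fell and Slc25a51. Of the 37 carriers these counts are 29.7%, 32.4%, 21.6% and 13.5%, close to the background.

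**Figure D3:**
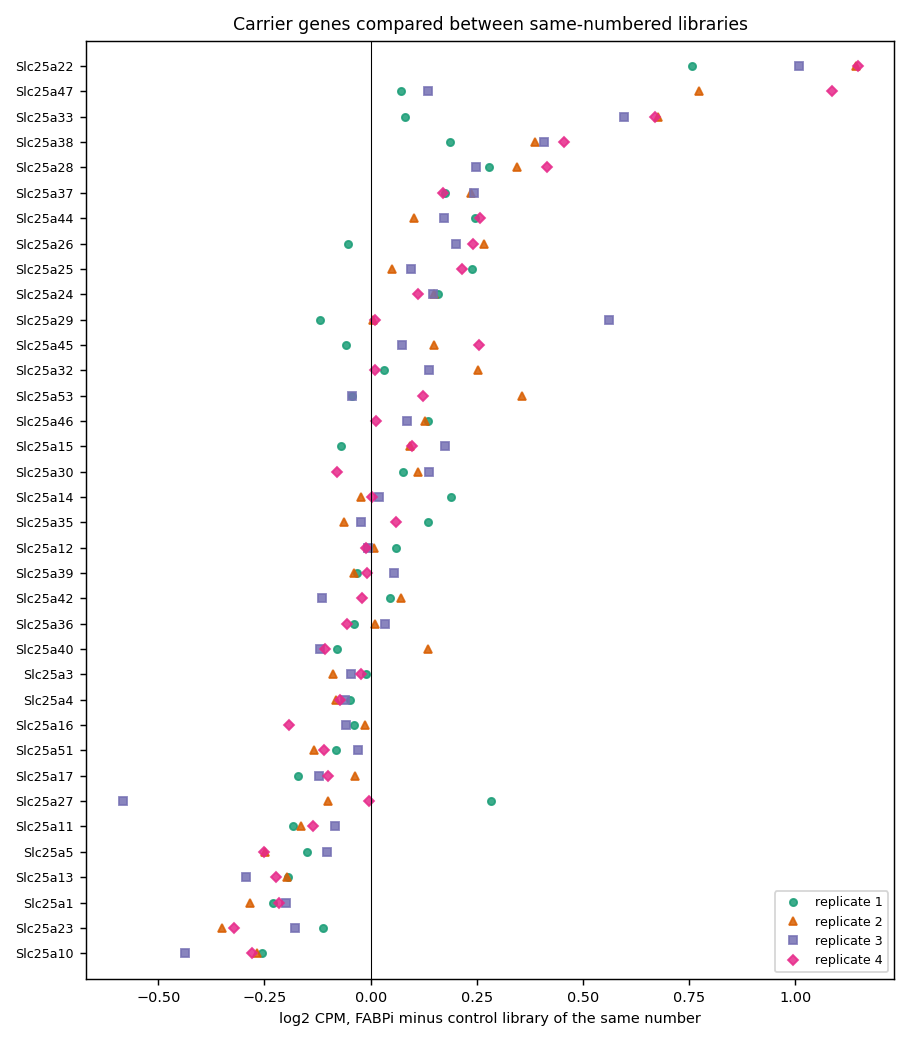
Log2 difference in CPM between the FABPi and the control library of the same number (x axis) for the carriers in order of their fitted change; each marker is 1 of 4 pairs. Slc25a22 lies between 0.76 and 1.15 in all pairs, Slc25a33 ranges from 0.08 to 0.68 with replicate 1 lowest, and all 4 pairs of Slc25a5 and Slc25a23 lie left of 0.

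Levels between genes were compared per exon length, in RPKM, which is CPM divided by the exon length in kilobases. In control libraries they covered a wide range, from 445 ± 32.2 RPKM for Slc25a5 to 0.436 ± 0.0844 RPKM for Slc25a47 (SD, n = 4). Slc25a5 was followed by Slc25a4 (116 ± 3.51), Slc25a3 (74.9 ± 3.45), Slc25a1 (60.6 ± 2.95) and Slc25a11 (47.6 ± 1.84 RPKM), and none of these 5 overlapped its neighbour over the 4 control libraries. With the length of the longest transcript in place of all exons, Slc25a11 took rank 6, behind Slc25a39. Over the whole order, 18 of the 36 neighbouring pairs overlapped, among them every pair from Slc25a28 down to Slc25a13, so the order there cannot be read. Slc25a22 lay within that stretch, at 7.50 ± 0.885 RPKM in control and 15.1 ± 0.624 RPKM in FABPi libraries (SD, n = 4). Of all counts in the family, Slc25a5 took 27.0% ± 1.19 in control and 24.5% ± 1.76 in FABPi libraries, and Slc25a3, Slc25a4 and Slc25a5 together 52.5% ± 1.35 and 49.7% ± 2.12 (SD, n = 4).

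**Figure D4:**
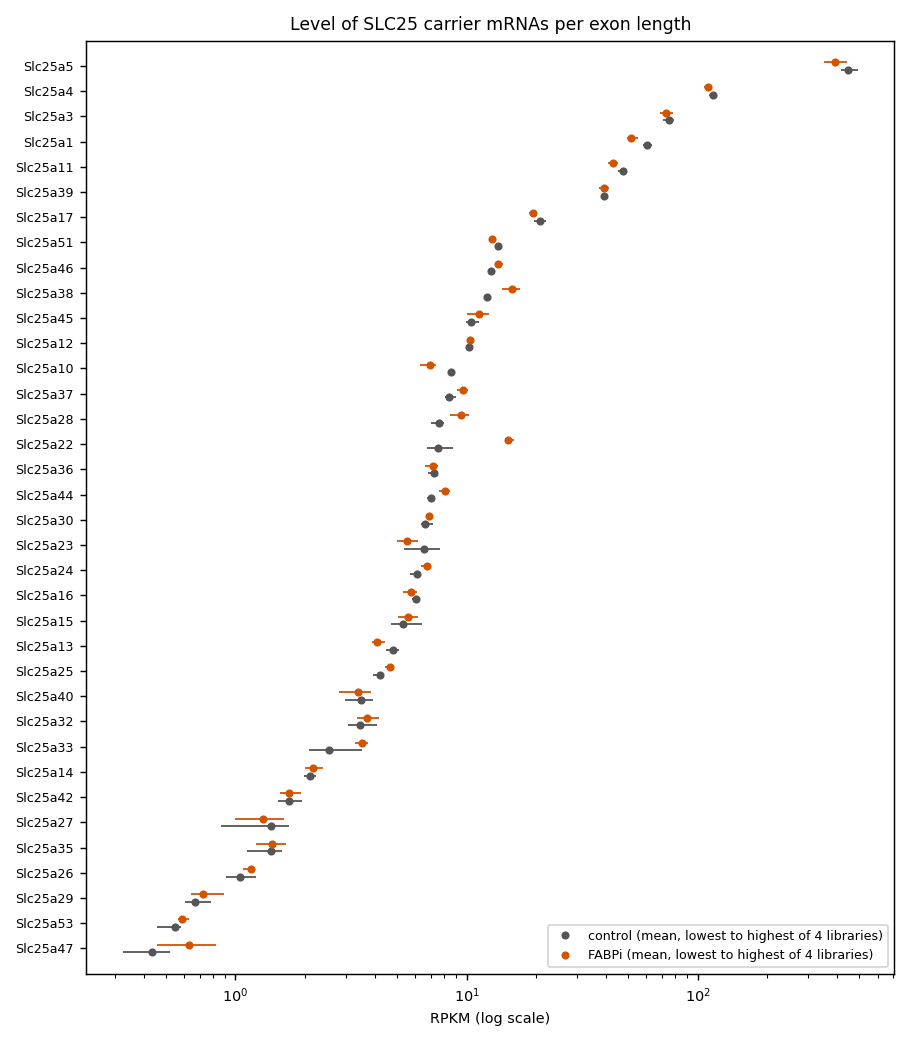
Level of the carrier messages in RPKM (x axis, log scale), as the mean (point) and the lowest to the highest value (line) of 4 control (grey) and 4 FABPi (orange) libraries, in order of the control mean. Slc25a5, at 445 RPKM in control, stands apart from all other members, and Slc25a22 shows the widest gap between the groups.

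For 9 pairs of related carriers, the log2 ratio of their counts within a library, which does not depend on library scaling, was compared between the groups by an exact two-sided permutation test, adjusted over the 9 pairs. Slc25a12 over Slc25a13 went from 2.04 ± 0.106 to 2.28 ± 0.0782 and Slc25a23 over Slc25a24 from 0.72 ± 0.16 to 0.34 ± 0.0932 (SD, n = 4; exact p = 0.0286 for both, the smallest possible; 0.129 after adjustment). Both pairs separated the groups completely and neither passed the adjustment. With 4 libraries per group the exact p can be no smaller, so 2 such pairs among 9 could not pass. That outcome therefore says nothing of either pair. The difference was 0.12 for the ADP/ATP carriers Slc25a4 over Slc25a5 (exact permutation p = 0.114), 0.52 for Slc25a33 over Slc25a36 (exact permutation p = 0.114) and 0.11 for the mitoferrins Slc25a28 over Slc25a37 (exact permutation p = 0.0857). All 3 had an adjusted p of 0.206. For Slc25a39 over Slc25a40, Slc25a16 over Slc25a42, Slc25a24 over Slc25a25 and Slc25a14 over Slc25a30 the differences lay between -0.07 and 0.04, and each had an adjusted exact p of 0.914.

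**Figure D5:**
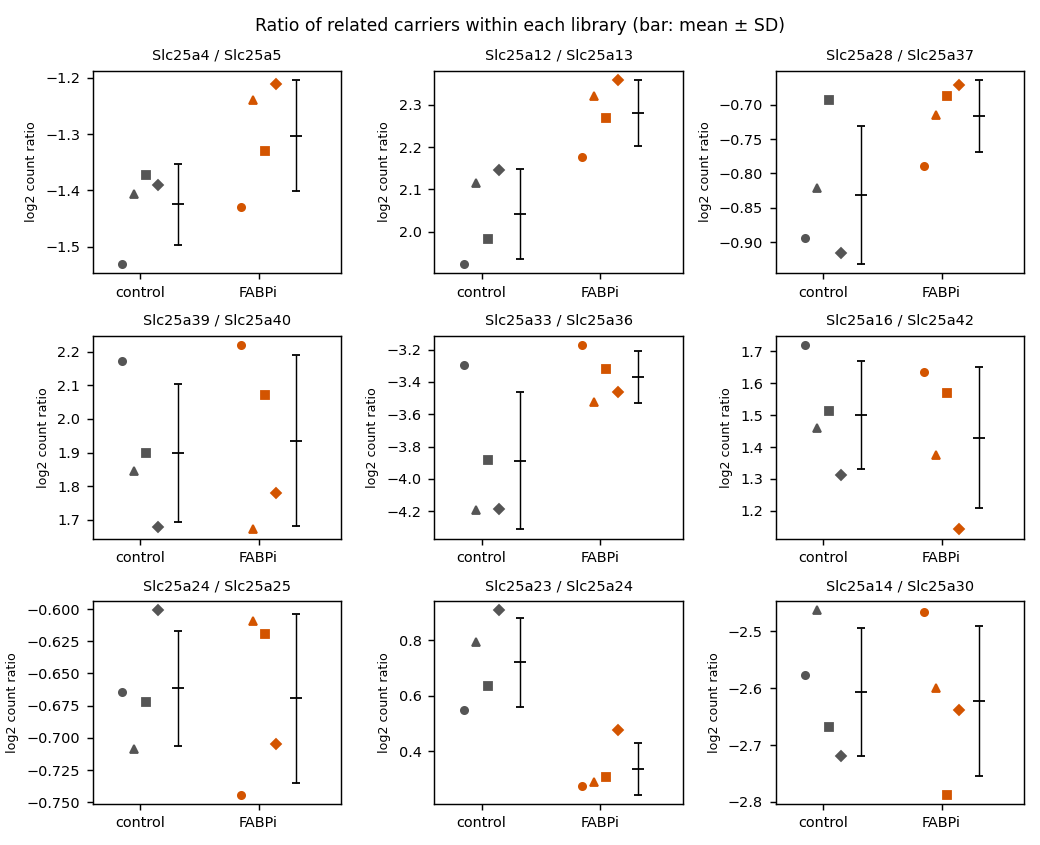
Log2 ratio of the counts of 2 related carriers (y axis, a scale of its own in each panel) in each control (grey) and FABPi (orange) library, with the mean ± SD of 4; circle, triangle, square and diamond are replicates 1 to 4. The groups separate for Slc25a12 over Slc25a13 and for Slc25a23 over Slc25a24, and overlap in the other 7 panels.

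Genes that work beside the carriers were read from 4 lists. Of the family's genes under other symbols, 1 of 3 tested fell (18.1% of all genes did) and 0 rose (18.7% of all genes): Ucp2, the uncoupling protein of immune cells, went from 918 ± 49.1 to 621 ± 63.6 CPM (SD, n = 4), 1.48-fold lower (log2 fold change -0.56, SE 0.07, adjusted p = 7.28e-05). With the replicate block all 3 fell (25.8% of all genes did), with Mtch1 (adjusted p = 0.0911 without the block) and Mtch2 (0.0718), which sit in the outer membrane. Of 22 other transporters and channels of mitochondrial membranes, 5 rose (22.7%, against 18.7% of all genes) and 7 fell (31.8%, against 18.1%), or 6 and 11 with the replicate block (against 26.6% and 25.8%). Slc8b1, the sodium-calcium exchanger of mitochondria, was 1.62-fold lower and Vdac1, a pore of the outer membrane, 1.33-fold lower. Sfxn2, a sideroflexin, rose from 15.6 to 23.4 CPM and Ghitm, an inner-membrane protein, 1.38-fold.

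Of the 10 genes that import carriers into the inner membrane, 1 rose (10%, against 18.7% of all genes) and 0 fell (against 18.1%), or 2 and 2 with the replicate block (against 26.6% and 25.8%). Timm9, a chaperone that escorts carriers between the membranes, rose 1.27-fold (log2 fold change 0.35, adjusted p = 0.00283). Of 16 tested enzymes at either end of the carrier shuttles, 7 rose (43.8%, against 18.7% of all genes) and 5 fell (31.2%, against 18.1%), or 8 and 6 with the replicate block (against 26.6% and 25.8% of all genes). Mthfd2 and Shmt2, mitochondrial enzymes of folate one-carbon metabolism, rose 1.43-fold and 1.31-fold. Me2, a mitochondrial malic enzyme, was 1.61-fold lower and Acly, which splits the citrate that Slc25a1 exports, went from 479 ± 26.2 to 369.9 ± 26.0 CPM (SD, n = 4; log2 fold change -0.37, SE 0.06, adjusted p = 0.000401). The medians of these 4 lists were -0.14, -0.07, 0.04 and 0.07 on the log2 scale, in the order given.

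Of the 11 carriers that passed, 5 share exon sequence with a gene on the other strand, and although the library kit marks strand, the sources used here do not give the strand setting of the counting. For Slc25a11 the shared stretch with Rnf167 was 189 bases, and over the 8 libraries Rnf167 held 18382 counts and Slc25a11 30029. For Slc25a25 the stretch shared with Naif1 was 379 bases, with 4185 counts for Naif1 and 10945 for Slc25a25. The antisense partners of Slc25a10, Slc25a33 and Slc25a37 held at most 2 counts over all libraries. Carriers that did not pass have such overlaps too. Slc25a26 shares 144 bases with Lrig1, which held 105263 counts against 1654 for Slc25a26. Slc25a35 shares 1151 bases with Rangrf, with 1371 counts for Rangrf and 1662 for Slc25a35. In RNA from whole cultures, fewer cells of a type and less RNA per cell cannot be told apart.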

How the data were processed

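The 8 files, 1 per library, hold read counts deposited by the authors, whole numbers per Ensembl gene and not normalized. Per the submitters' processing notes, STAR, featureCounts, DESeq2 and deepTools were used with GRCm38; versions, roles, annotation release, strand setting and the treatment of reads with several matches are not given in the sources used here. Symbols and coordinates came from GENCODE M21 (53360 of 53465 identifiers; the other 105 held 0.00631% of counts). Counts of any pair of libraries within a group differed beyond sampling noise (chi-square per degree of freedom 3.08 to 24.2), and each library counted once.

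Differences were tested with edgeR 4.0.16 (R 4.3.3), quasi-likelihood, after filterByExpr and TMM, with treatment alone in the model, over 14443 genes with Benjamini-Hochberg adjustment. SEs came from the F statistic, and 95% intervals from the t distribution with 11.8 degrees of freedom. Script checks used simulated data. RPKM used the union of exons. Alternatives were RLE size factors, DESeq2 1.42.0, limma-voom 3.58.1, no filter, the replicate block and leaving out each library. Same-numbered libraries of the 2 groups deviated together (correlation across genes 0.384, 0.145, 0.106 and 0.264 for numbers 1 to 4). FABPi replicate 2 matched control replicate 4 better (0.208). The labels do not state that the numbers are pairs. Only the replicate block and the comparisons of same-numbered libraries took them as pairs, and the main test did not.

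The members, lists and pairs were chosen with earlier results of these data known. A member that counts among the 37 is not reported here by name or drawn in the plots. Values per library are given for carriers past the threshold and without overlap at 5 CPM or more, for the most abundant members and for paired carriers. From the lists of other genes, up to 4 called genes were named by size of change.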

Additional observations from a re-analysis of the deposited data

Results flagged for a closer look

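Among the 74 groups of 4 values examined (37 carriers in 2 groups), a single library stood far from the other 3 of its group in 3 cases; chance alone gives about 1 in 20 groups. Slc25a22 was at 95.8 CPM in FABPi replicate 4, against 87.6 to 89.0 CPM in the other FABPi libraries, all above the controls. Slc25a26 was at 5.19 CPM in FABPi replicate 4, against 5.70 to 5.74 CPM in the others. Slc25a53 was at 3.64 CPM in control replicate 2, against 4.59 to 4.62 CPM in the others.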

How the results depend on the processing

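Of the 11 carriers that passed, 7 (5 higher, 2 lower) passed in each of the 8 fits that left out a library and in the fits with RLE size factors, DESeq2, limma-voom, no filter and the replicate block: Slc25a22, Slc25a38, Slc25a28, Slc25a37, Slc25a44, Slc25a1 and Slc25a10. The share of all genes that did the same was not computed, so 7 of 11 has no background to be read against. Slc25a44 passed barely without control replicate 3 (edgeR adjusted p = 0.0498). The number that rose was 5 to 8 and the number that fell 2 to 5 when a library was left out, and 10 and 8 with the replicate block; that block ended no call. The median log2 fold change of the family was 0.0093 to 0.045 with a library left out, the highest without control replicate 4. The group difference in the family's share of counts ranged from -0.00626 to -0.00179 percentage points with a library left out. Directions reversed, on leaving out a library, for carriers that passed in no such fit: Slc25a14 (-0.0050 to 0.083), Slc25a35 (-0.077 to 0.083), Slc25a12 (-0.0018 to 0.027), Slc25a39 (-0.032 to 0.0155), Slc25a42 (-0.066 to 0.060), Slc25a36 (-0.041 to 0.018) and Slc25a40 (-0.11 to 0.036). The same held for the log2 ratios of Slc25a39 over Slc25a40 (-0.058 to 0.13), Slc25a16 over Slc25a42 (-0.14 to 0.025), Slc25a24 over Slc25a25 (-0.028 to 0.017) and Slc25a14 over Slc25a30 (-0.068 to 0.039). For these log2 ratios, a sign-flip test over the 4 same-numbered pairs allows no p under 0.125. That limit does not hold for the replicate block, which is an edgeR fit. With the longest transcript as length, Slc25a11 held rank 6. The cause of these differences was not tested. Carriers under 80 counts in all 8 libraries were too low to compare.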
